A study of Mus musculus with 14 samples.

Results

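The 45 genes described here are the housekeeping, metabolic and remaining genes of the segment of mouse chromosome 16 that Dp(16)1Yey mice carry in an additional copy, between Lipi and Zbtb21 (also called Zfp295; chr16:75540514-97962622 of mm10). They were chosen by name and position; where a symbol had several loci, the one with the highest mean was taken. The segment held 143 named loci of the 59796 loci in the deposited table, and the 45 genes lay on 42 of them, since Mrps6 shared a locus with Slc5a3, and Prdm15 shared another with C2cd2 and Zfp295. Of these 42 loci, 39 had a mean of at least 10 normalised fragments in the Dp(16)1Yey comparison and were tested, and these hold 42 of the genes. The 3 others were too low. Cldn14 was listed at 0 in every library, Fam3b was above 0 in 2 wild-type littermates of 189N3 only (0.902 and 1.21 normalised fragments), and Sh3bgr lay between 4.08 and 12.9 in the 14 libraries.

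Where RNA output follows the number of gene copies, a gene in 3 copies instead of 2 is higher by log2(3/2) = 0.58 on the log2 scale. Many of the genes in this segment encode single subunits of machines whose other subunits lie on other chromosomes. Examples are the TRiC chaperonin, which folds actin and tubulin, the mitochondrial ATP synthase, the mitochondrial ribosome and the assembly chaperones of the proteasome. Others encode enzymes of one-carbon and redox metabolism, among them Gart of purine synthesis and Sod1, the cytosolic superoxide dismutase.

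RNA-seq was made from hippocampus of embryos aged E16 to E18, in 4 groups. These were Dp(16)1Yey, with the duplicated segment on 1 chromosome (n = 4), and their wild-type littermates (n = 4), and 189N3, which carry Dyrk1a once more on a genomic transgene (n = 3), and theirs (n = 3). In 189N3 the 45 genes have the usual 2 copies. The wild-type littermates carry neither change. Dyrk1a, the gene added in 189N3, stood at 4248, 3938 and 5877 normalised fragments in 189N3 and at 2448, 2977 and 2126 in its littermates, without overlap. Each library held between 20809135 and 29098454 fragments. Replicates were numbered from 0 in the labels. The methods give these n as numbers of genotyped embryos per genotype, and p-values measure the spread between their libraries. Markers of hippocampus, neurons and progenitors were present in all 14 libraries. The summed hippocampal markers (Prox1, Zbtb20, Lef1, Emx2, Lhx2 and Wnt8b) ranged from 3655 to 10806 in Dp(16)1Yey and from 4767 to 11571 in the littermates. The library labelled Dp(16)1Yey replicate 1 was the lowest of these, and it had the highest erythroid sum of this model (48733, against 4586 to 17218 in the littermates). Dp(16)1Yey replicate 3 was next to it in both (3965 and 22567). The littermates of Dp(16)1Yey fell into 2 nearly alike pairs, replicates 0 and 1 and replicates 2 and 3, whose squared differences were 1.66 and 2.01 times the counting variance against 31.5 to 36.4 times across the pairs. The first pair had the higher hippocampal sums (11571 and 10963, against 4767 and 5405) and the lower sums of striatal markers (229 and 234, against 1593 and 1540.1). All 4 were counted as samples in the intervals, exact tests and p-values of single genes below. Limma fits with each pair averaged are given only as counts of loci with an unadjusted p under 0.05.

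The sequence around the transcript starts of these genes was also read for shared letters, apart from their RNA levels. RefSeq windows of 300 bases (250 before and 50 after a transcript start, GRCm38.p6) were found for 37 of the 45 genes. These windows held a median of 28 CG dinucleotides, against 7 over all 32851 windows. For each of the 37 genes the window nearest its GENCODE start was taken, whereas all windows were used without such a choice. The windows of Mrps6 and Slc5a3 nearly coincide and were counted separately. The site of the factor NRF1, which is known for binding promoters of mitochondrial and other housekeeping genes, was searched as the palindrome of the half-site GCGCA followed by TGCGC, which reads the same on both strands. It lay in 6 of the 37 windows (16.2%), namely Mrpl39, N6amt1, Mis18a, Paxbp1, Ttc3 and Psmg1, against 0.971% of all windows. Among windows with at least 20 CG dinucleotides the shares were 5 of 25 and 2.53%. The ETS core CCGGAAG, the kind of site bound by GABPA, lay on either strand in 8 of 37 windows (21.6%), against 8.86% of all windows, or in 7 of the 25 CG-rich windows against 19.6%. The CCAAT box (CCAAT) lay on either strand in 11 windows (29.7%, against 37.4% of all). A match is a description of letters and was not tested as a binding site. Some of these sites are shown for genes whose RNA levels are compared below, with the NRF1 or ETS letters in capitals, 5′ to 3′ on the strand of the gene. Each lies before the RefSeq start used for its window, but other transcripts can start earlier. Only the stretches of Cct8 and Psmg1 are clear of exons annotated in GENCODE vM21, and the other 6 overlap one.
Mrpl39 (chr16:84735350-84735379, minus strand): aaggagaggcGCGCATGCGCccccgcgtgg
Mis18a (chr16:90727372-90727400, minus strand): cttgcaccttGCGCATGCGCagaggtatt
Paxbp1 (chr16:91044495-91044524, minus strand): gagagcccagGCGCATGCGCaatcgaggcg
Ttc3 (chr16:94370719-94370738, plus strand): cgcggcgactGCGCATGCGC
Cct8 (chr16:87495890-87495916, minus strand): ggcggggcgaCCGGAAGtagggggacg
Donson (chr16:91688883-91688909, minus strand): gcgcgcccggCCGGAAGcggccaccgg
Dscr3 (chr16:94526756-94526782, minus strand): cctgctatcaCTTCCGGaaacccacct
Psmg1 (chr16:95991013-95991039, minus strand): tcgcggcggaCCGGAAGctcttaggtt
The 4 NRF1 sites began 125, 19, 135 and 10 bases before the RefSeq start, in the order shown, and all 4 lie in exons annotated for some transcript. The site of Dscr3 was the ETS core read on the opposite strand.

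The first question was whether each gene followed its copy number in Dp(16)1Yey. Of the 39 tested loci, 37 had a higher mean in Dp(16)1Yey than in the littermates (background 54.9% of the 36024 loci tested), and the median log2 fold change was 0.44, against 0.03 over all loci. The 49 other tested named loci of the segment had a median of 0.39, and the 344 of chromosome 16 outside it of -0.03. None of the 39 passed the adjusted threshold in limma, where 0 of all loci did, 1273 had an unadjusted p under 0.05 and the smallest adjusted p was 0.909. An unadjusted p under 0.05 was reached by 21 of the 39, all higher (background 1.71% of loci), and by 0 in the lower direction (background 1.82%). In 16 loci every Dp(16)1Yey library lay above every littermate (background 1.72%). The 21 and the 16 both include the locus of Jam2. By the authors' isoform estimates 98.7% of its fragments belonged to Gabpa, which is not among the 45 genes. With the littermate pairs averaged, 15 of the 39 loci had an unadjusted p under 0.05 (background 0.752% in either direction). In bulk tissue, more cells of a type and more RNA per cell cannot be told apart.

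The 95% interval of the fold change held log2(3/2) in 38 of the 39 loci (background 44.6%). For 21 of these the interval also lay above 0 (background 1.68%), so that 2 copies' worth of RNA was outside it. For 17 it held both values (background 42.9%), so the spread between libraries left both levels possible. One locus, Adamts5, had an interval that ended just under log2(3/2), at 0.575 (background 55.4% of loci under it). These intervals are not adjusted for the number of genes, and they treat the nearly alike littermates as separate samples.

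**Figure D1:**
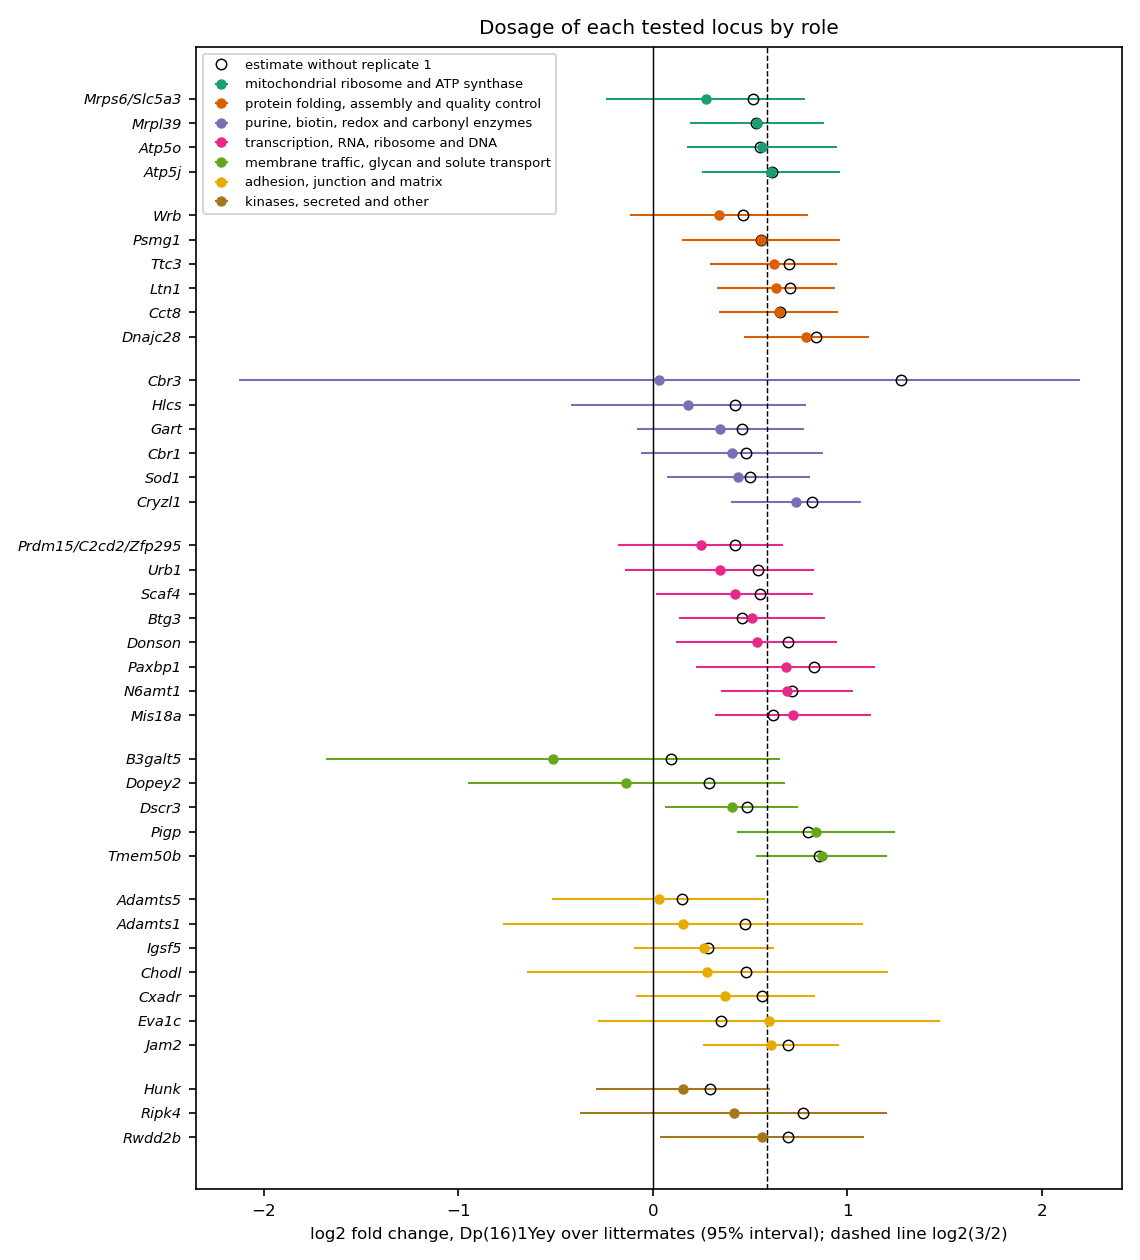
Log2 fold change of each of the 39 tested loci in Dp(16)1Yey over wild-type littermates (filled points, limma estimate from 4 and 4 libraries, bars 95% interval), coloured by role, with the estimate without replicate 1 as open circles and a dashed line at log2(3/2). Filled points lie above 0 in 37 loci, and every bar except that of Adamts5 reaches the dashed line. The loci shared by several of the 45 genes are drawn once, under the role of Mrps6 and of Prdm15.

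The libraries of Dp(16)1Yey did not carry the difference equally. Set against the mean of the littermates, the median over the 39 loci was 0.68, 0.20, 0.63 and 0.48 in replicates 0, 1, 2 and 3, on the scale of log2(value + 1). Replicate 0 lay above every littermate in 36 loci (background 21.8%), replicate 2 in 34 (background 23%) and replicate 3 in 28 (background 31.5%). Replicate 1 lay above every littermate in 18 (background 29.9%) and below every littermate in 12 (background 28.4%), and it was the lowest of the 4 in 25. Without it, all 39 loci were higher (background 54.4%) and the median was 0.55. Then 29 had an unadjusted p under 0.05 (background 1.18%), 27 had 3 libraries above every littermate (background 2.54%), and every interval held log2(3/2) (background 47.8%). None of the 39 passed the adjusted threshold without it either, where 3 of 35999 loci did (background 0.00833%).

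**Figure D2:**
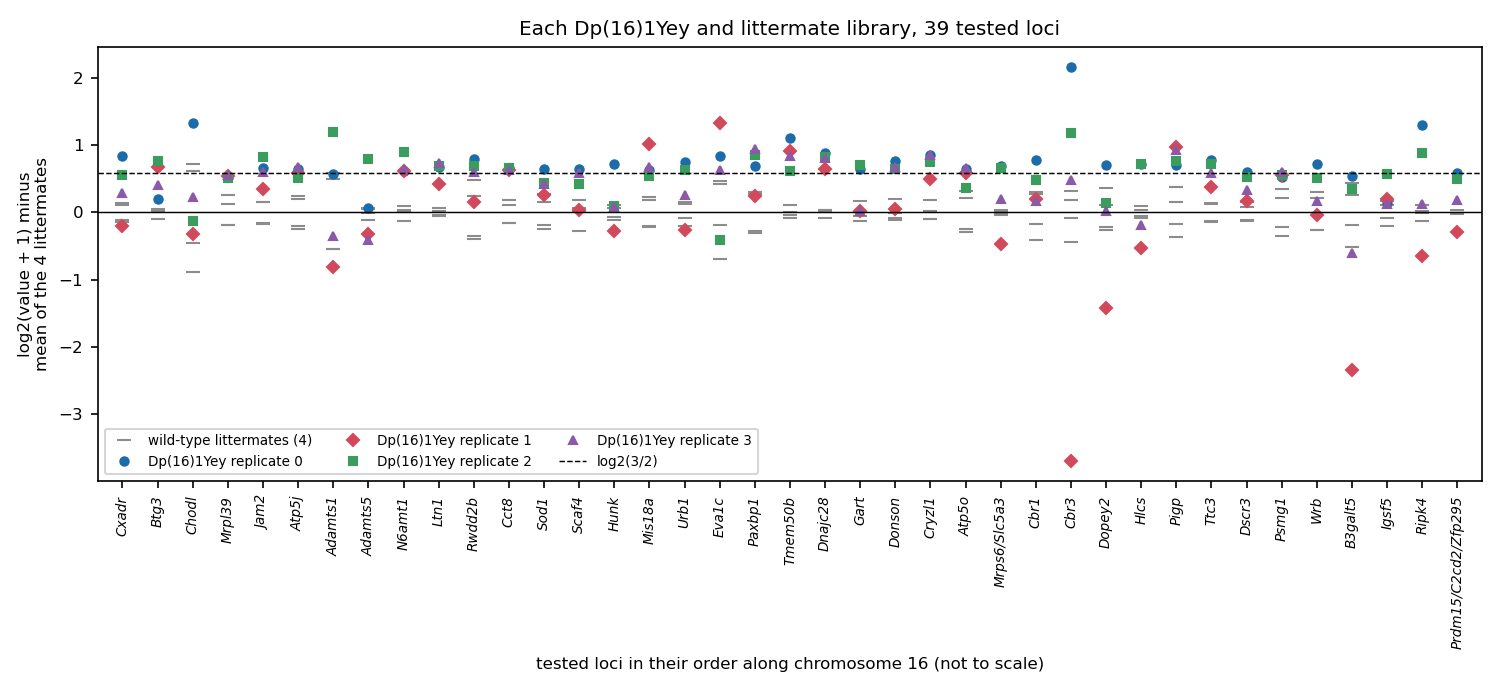
Difference of each library from the mean of the 4 wild-type littermates, on log2(value + 1), for the 39 tested loci in their order along chromosome 16. Grey bars are littermates, coloured points the 4 Dp(16)1Yey libraries, and the dashed line is log2(3/2); replicate 1 (red) lies near the other 3 at Mrpl39, Atp5j, Cct8 and Psmg1 and far below 0 at Cbr3, Dopey2 and B3galt5.

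Genes of protein folding, assembly and quality control had the highest median of the role groups over all libraries, 0.63. Without replicate 1 it was 0.68, below the 0.70 of the 3 loci of kinases and other genes. Of the 6 tested, 5 had an unadjusted p under 0.05 and all 6 were higher. Dnajc28 (XLOC_021609, chr16:91614254-91619026, minus strand), a protein with the J domain of DNAJ co-chaperones, stood at 398, 335, 381 and 377 normalised fragments in Dp(16)1Yey replicates 0 to 3 and at 220.5, 219.7, 216 and 203 in the littermates. The groups did not overlap, and replicate 1 was the lowest of the 4 transgenic libraries. Its log2 fold change was 0.79 (95% interval 0.47 to 1.11), with an exact two-sided permutation p of 0.0286, the smallest that 4 against 4 samples allow, and an adjusted p of 0.909 in limma. The exact test and the interval treat the nearly alike littermates as separate samples. Cct8 (XLOC_021539, chr16:87483326-87495873, minus strand), the theta subunit of the TRiC chaperonin, stood at 9631, 9389, 9623 and 9419 in Dp(16)1Yey and at 5469, 5464, 6929 and 6589 in the littermates. The 4 transgenic libraries lay close together and above all 4 littermates, which fell into a lower and a higher pair. The log2 fold change of Cct8 was 0.65 (95% interval 0.34 to 0.95).

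Ltn1 (XLOC_021536, chr16:87376651-87432612, minus strand), the ubiquitin ligase that marks nascent chains on stalled ribosomes, stood at 3373, 2827, 3422 and 3528 in Dp(16)1Yey and at 2036, 2058, 2148 and 2215 in the littermates. All transgenic libraries were above the littermates, with replicate 1 nearest to them, and the log2 fold change was 0.63 (95% interval 0.33 to 0.94). Ttc3 (XLOC_020584, chr16:94370618-94469343, plus strand), a ubiquitin ligase with tetratricopeptide repeats, had the highest level per exon length of the singly held loci, 2431 normalised fragments per kb of exon in the littermates. It stood at 67457, 51308, 64885 and 59228 in Dp(16)1Yey and at 35658, 35811, 43409 and 42876 in the littermates, again without overlap, and its log2 fold change was 0.62 (95% interval 0.30 to 0.95). Psmg1, a chaperone of proteasome assembly, averaged 402 ± 9.08 (SD, n = 4) in Dp(16)1Yey and 278 ± 63.5 in the littermates. Its log2 fold change was 0.56 (95% interval 0.15 to 0.96). Wrb, a receptor subunit for the insertion of tail-anchored membrane proteins, stood at 3343, 1986, 2894 and 2291 against 1692, 1703, 2523 and 2363. The groups overlapped, and the log2 fold change was 0.34, with an unadjusted p of 0.131 in limma.

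For the mitochondrial genes the median fold change on the log2 scale was 0.55 (0.54 without replicate 1), and 3 of their 4 loci had an unadjusted p under 0.05. Mrpl39, a protein of the large mitochondrial ribosomal subunit, stood at 788, 793, 773 and 798 in Dp(16)1Yey and at 476, 477, 652 and 592 in the littermates, with a log2 fold change of 0.53 (95% interval 0.19 to 0.88). Atp5j, coupling factor 6 of the ATP synthase, stood at 1592, 1521, 1452 and 1622 against 882, 858, 1200.3 and 1168, and Atp5o, its oligomycin sensitivity subunit, at 5408, 5216, 4464 and 5481 against 2852, 2925, 4338 and 4016. In all 3 genes every transgenic library was above every littermate and replicate 1 lay among the other transgenic libraries. The littermates were split as their pairs, with replicates 0 and 1 the lower in each gene; the part of the markers that differed between the pairs was not tested. Atp5j had a log2 fold change of 0.61 (95% interval 0.25 to 0.96) and Atp5o of 0.56 (95% interval 0.18 to 0.95). The locus shared by Mrps6 and Slc5a3, the sodium and myo-inositol cotransporter, stood at 4437, 2003, 4351 and 3174 against 2832, 2791, 2713 and 2700.0. There replicate 1 was below all littermates and the other 3 were above them, so that the log2 fold change of 0.27 became 0.52 without it. By the authors' isoform estimates 87.3% of its fragments belonged to Slc5a3 and 12.7% to Mrps6, so the value is mostly that of Slc5a3.

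Genes of transcription, RNA, ribosome assembly and DNA had a median of 0.52 (0.59 without replicate 1), and 6 of their 8 loci had an unadjusted p under 0.05. N6amt1 (XLOC_020509, chr16:87354185-87368742, plus strand), a methyltransferase that modifies the translation release factor, stood at 304, 304, 371 and 310.0 in Dp(16)1Yey and at 181, 199, 203 and 212 in the littermates. The groups did not overlap, replicate 2 was the highest, and the log2 fold change was 0.69 (95% interval 0.35 to 1.03). Mis18a (XLOC_021593, chr16:90719312-90727404, minus strand), needed to load CENP-A at centromeres, stood at 299.6, 391, 279.6 and 309 against 167, 165, 218 and 227. Here replicate 1 was the highest library, and the log2 fold change of 0.72 (95% interval 0.32 to 1.12) was 0.62 without it. Urb1 (XLOC_021595, chr16:90751527-90810413, minus strand), a factor of ribosome assembly, stood at 890.0, 445, 823 and 634 against 594, 579, 463 and 499.5. Replicate 1 was below all littermates, the other 3 above them, and the log2 fold change of 0.34 (95% interval -0.14 to 0.83) became 0.54 without it. Btg3, a member of the antiproliferative BTG family, had a log2 fold change of 0.51 (unadjusted p = 0.0119 in limma), Paxbp1 of 0.68 (0.00738), Donson, a protein of the replication fork, of 0.53 (0.0161) and Scaf4, which binds RNA polymerase II, of 0.42 (0.043).

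In the loci of Btg3, Donson, Scaf4 and Paxbp1, it was the place of replicate 1 that varied. That of Paxbp1 also holds 4932438H23Rik, with 0.706% of its fragments. Btg3 stood at 249, 344, 366 and 286 in Dp(16)1Yey, against 201 to 223 in the littermates, and replicate 1 was above all of them. Donson stood at 539.9, 330.3, 499 and 509 against 295 to 367, with replicate 1 inside the range of the littermates. Scaf4 at 583, 379.6, 498 and 558 against 308 to 424 and Paxbp1 at 2310.0, 1711, 2599 and 2760.5 against 1165 to 1771 also had replicate 1 inside that range and the other 3 libraries above it. For Paxbp1 the littermates of replicates 0 and 1 (1771 and 1747) were the higher pair, the reverse of the mitochondrial genes.

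The locus that holds Prdm15, C2cd2 and Zfp295 had a log2 fold change of 0.25 (0.42 without replicate 1). The isoform estimates gave 57.7% of its fragments to Prdm15, a zinc finger protein, 34.3% to Zfp295 and 0.619% to C2cd2, so C2cd2 was hardly measured. Sod1 and Scaf4 lie on opposite strands and overlap by 650 bases, Cxadr and Btg3 by 27138 bases, and Pigp and Ttc3 start head to head with 1225 bases in common. Genes outside the 45 also overlap some of these loci on the opposite strand. They overlap Cryzl1 by 26321 bases, Paxbp1 by 2707, Donson by 2414, Cxadr by 999, Atp5j by 701 and Cct8 by 192. The library kit keeps the strand, but the counting setting is not given in the sources used here. If strand was not used, reads from these overlaps cannot be told apart.

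Among the 6 enzymes of purine, biotin, redox and carbonyl metabolism, the median was 0.38 (0.49 without replicate 1) and 2 had an unadjusted p under 0.05. Cryzl1 (XLOC_021612, chr16:91689322-91728975, minus strand), a relative of quinone reductases, stood at 1278, 999, 1189.9 and 1274 in Dp(16)1Yey and at 661, 658, 801 and 716 in the littermates, without overlap. Its log2 fold change was 0.74 (95% interval 0.40 to 1.07). Sod1 (XLOC_020535, chr16:90220754-90226329, plus strand) stood at 2817, 2139, 2429 and 2399 against 1521, 1575, 2173 and 1991. Replicate 1 fell just under the highest littermate, the other 3 were above all of them, and the log2 fold change was 0.44 (95% interval 0.07 to 0.81), with an exact permutation p of 0.0571. Gart, which carries 3 steps of purine synthesis, had 0.35 with replicates 0 and 2 high (1887 and 1947) and replicates 1 and 3 (1217 and 1215) within the range of the littermates (1101 to 1350.3). Hlcs, which attaches biotin to carboxylases, stood at 325, 135, 323 and 173 against 186 to 209, so replicates 0 and 2 were above and replicates 1 and 3 below the littermates.

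The neighbouring carbonyl reductases Cbr1 and Cbr3 differed in level and spread. Cbr1 stood at 885, 595, 724 and 581 against 456, 388, 627 and 641, so that its groups overlapped, and its log2 fold change was 0.41 (95% interval -0.06 to 0.88). Cbr3 (XLOC_020578, chr16:93683215-93690990, plus strand) stood at 57.4, 0, 28.6 and 17.1 in Dp(16)1Yey and at 11.3, 13.9, 8.64 and 15.2 in the littermates. The library of replicate 1 was at 0, where a count of 0 allows up to 3 fragments, while the other 3 were above every littermate. The log2 fold change was 0.03 (95% interval -2.13 to 2.20) and became 1.28 without replicate 1, on a scale that understates changes of so low a gene.

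In the group of membrane traffic, glycans and solute transport the median was 0.27 (0.49 without replicate 1), and it held both the highest and the lowest fold change of the 39 loci. Its 7 loci included the one shared by Mrps6 and Slc5a3 and the one of Prdm15, C2cd2 and Zfp295. These were also counted in the mitochondrial and the transcription group, and the median of 0.27 was the value of the Mrps6 and Slc5a3 locus. Tmem50b (XLOC_021608, chr16:91574503-91597800, minus strand), a small protein of intracellular membranes, stood at 1421, 1251, 1014 and 1181 in Dp(16)1Yey and at 647, 621, 667 and 712 in the littermates. Every transgenic library was above every littermate, with replicate 1 second highest. Its log2 fold change was 0.87 (95% interval 0.53 to 1.21), the smallest unadjusted p of the 39 loci (0.000134, adjusted 0.909 in limma). On the recovered fragments DESeq2 gave an adjusted p of 0.0160 for Tmem50b and for Dnajc28, the only 2 of the 39 loci it called among 8 loci in all, and edgeR's quasi-likelihood test called 0 of 35807 loci (1319 at an unadjusted p under 0.05). Pigp (XLOC_021645, chr16:94358763-94371842, minus strand), a subunit of the enzyme that starts the GPI anchor, stood at 858, 1039, 898 and 1000.3 against 411, 468, 684 and 589, with replicate 1 the highest, and had a log2 fold change of 0.84 (95% interval 0.44 to 1.25). Dscr3 (XLOC_021653, chr16:94497783-94526830, minus strand), a subunit of the endosomal retriever complex, stood at 1756, 1300.0, 1681 and 1456 against 1064, 1077, 1291 and 1226. The groups touched without overlapping, and the log2 fold change was 0.41 (95% interval 0.06 to 0.75).

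The 2 loci with a negative estimate were also in this group. B3galt5 (XLOC_020608, chr16:96235801-96319859, plus strand), a galactosyltransferase, stood at 109.8, 14.1, 95.9 and 49.3 in Dp(16)1Yey and at 65.9, 52.4, 90.7 and 102 in the littermates. Dopey2 (XLOC_020579, chr16:93711904-93810590, plus strand), a protein of Golgi and endosome traffic, stood at 1426, 326, 960.3 and 886 against 752, 728, 940.2 and 1121. In both genes replicate 1 was far below every other library of this model, and the other 3 overlapped the littermates. The log2 fold changes of -0.51 (95% interval -1.68 to 0.65) and -0.14 (95% interval -0.95 to 0.68) became 0.09 and 0.29 without it, so their negative sign rests on that library.

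Genes of adhesion, junctions and matrix had a median of 0.28 (0.47 without replicate 1), and 1 of 7 loci had an unadjusted p under 0.05. That was the locus of Jam2 (XLOC_020502), a junctional adhesion molecule at chr16:84774123-84825928, which stood at 3887, 3127, 4362 and 3752 against 2752, 2753, 2215 and 2192, with a log2 fold change of 0.61 (95% interval 0.26 to 0.96). However, the isoform estimates gave 98.7% of its fragments to Gabpa, the neighbouring gene for an ETS factor, and 1.28% to Jam2, so the value is that of Gabpa. Igsf5, another junction protein, shared its locus with Pcp4 (68.3% of the fragments), and the Igsf5 isoforms differed by 0.03 between the group means, without a test. Cxadr, the coxsackievirus and adenovirus receptor, had 0.37 (95% interval -0.09 to 0.83) and 0.56 without replicate 1. The secreted proteases Adamts1 and Adamts5, which cut aggrecan-type proteoglycans, stood at 814, 314, 1260.3 and 429.7 and at 179, 136, 297 and 129 in Dp(16)1Yey, against 376 to 823 and 159 to 179 in the littermates. Replicate 2 was the highest in both, and the estimates were 0.15 (95% interval -0.77 to 1.08) and 0.03 (95% interval -0.52 to 0.58). Chodl, a lectin-like membrane protein, and Eva1c, a receptor for axon guidance, stood at 301, 95.2, 108 and 139.9 and at 30.7, 43.5, 12.2 and 26.2, against 63.9 to 197 and 9.90 to 23.3. Their intervals were wide (-0.65 to 1.21 and -0.28 to 1.48). Of the remaining genes, Rwdd2b had 0.56 (95% interval 0.04 to 1.09), and the protein kinases Ripk4 and Hunk had 0.42 and 0.15, with intervals that held 0. Ripk4 stood at 117, 29.4, 86.7 and 51.3 against 42.6 to 50.7 in the littermates, and Hunk at 1266, 637, 821 and 810.1 against 712 to 835. In both kinases replicate 1 was below every littermate, and without it the estimates were 0.77 and 0.29.

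**Figure D3:**
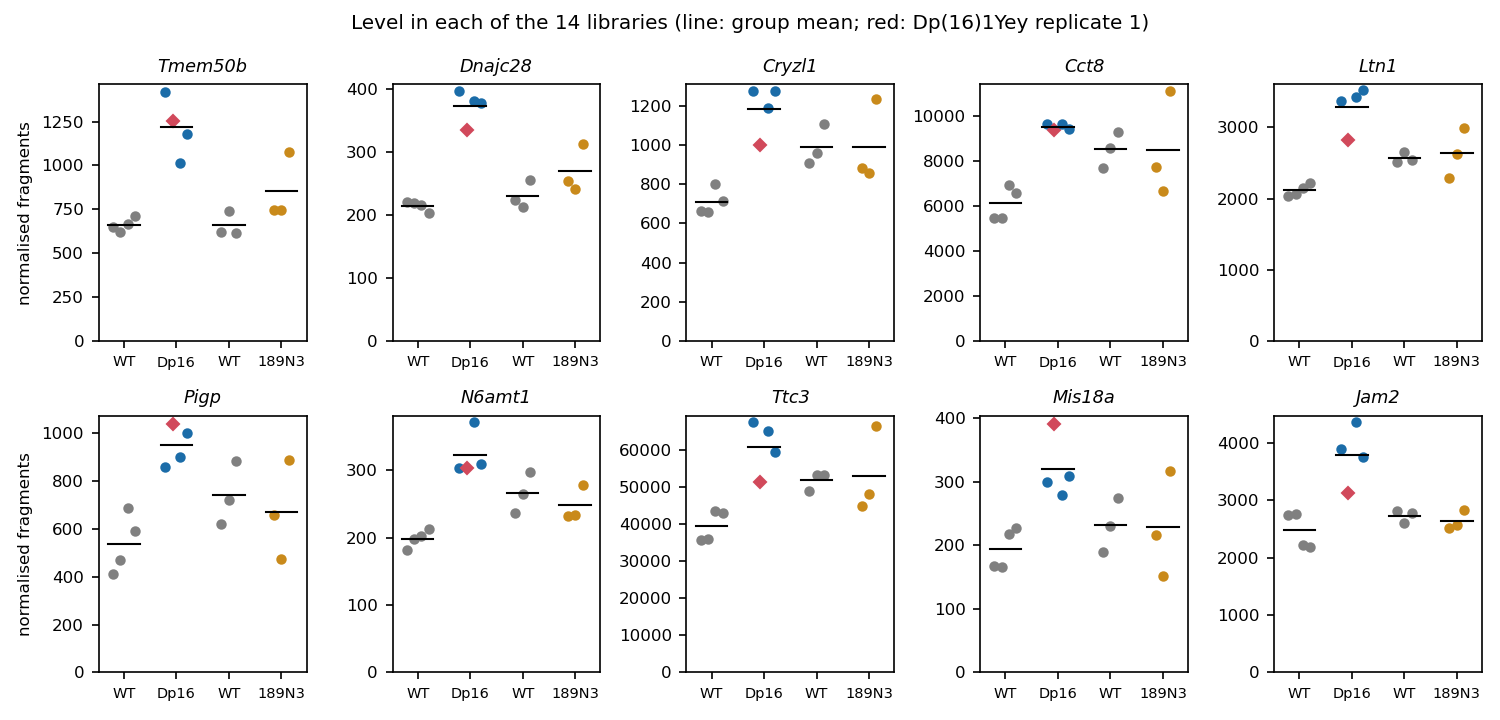
Normalised fragments in each of the 14 libraries for the 10 loci with the smallest unadjusted p in Dp(16)1Yey, with group means as lines, linear axes from 0 and Dp(16)1Yey replicate 1 in red. All 4 Dp(16)1Yey libraries lie above their 4 wild-type littermates in each panel, and the 189N3 libraries overlap theirs in 9 of the 10, Tmem50b being the exception; the panel Jam2 shows a locus of mostly Gabpa fragments.

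Single subunits were next set beside the genes that work with them and lie outside the segment. The 15 lists of such partner genes held 188 tested genes. In Dp(16)1Yey 0 of them were higher and 1 was lower at an unadjusted p under 0.05 (background 1.71% and 1.82% of loci), and 0 passed the adjusted threshold. The one lower was Bcan, the proteoglycan brevican (-0.67, unadjusted p = 0.0270 in limma). The 7 other TRiC subunits had log2 fold changes from 0.05 to 0.18, below the 0.65 of Cct8. The 13 other ATP synthase genes ranged from -0.12 to 0.23, and the 72 other mitochondrial ribosomal proteins from -0.26 to 0.39, with a median of 0.09.

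Library by library, the place of replicate 1 varied between the lists of partner genes. Its mean difference from the littermates was negative for the partners of Cxadr (-0.33), Hlcs (-0.25) and Adamts1 and Adamts5 (-0.15). It was small for those of Wrb (-0.07), Ltn1 (-0.05) and Gart (0.09). The partners of Pigp (0.21), Dscr3 (0.27) and Sod1 (0.49) were higher there than in the littermates. The mean difference of the TRiC partners from the littermates was 0.08, 0.47, 0.02 and -0.09 in replicates 0 to 3, that of the ATP synthase partners 0.15, 0.57, -0.30 and -0.11, and that of the mitochondrial ribosome 0.11, 0.47, -0.14 and -0.10. In each, replicate 1 was the highest of the 4. The proteasome assembly partners (0.48), the replication fork helicase (0.61) and the genes that load CENP-A (1.00) were also high in replicate 1. Taken relative to these partners, Cct8 was at 0.59, 0.16, 0.64 and 0.72 in replicates 0 to 3 (littermates -0.03 to 0.03), Atp5j at 0.49, 0.01, 0.82 and 0.79 (littermates -0.13 to 0.13), Mrpl39 at 0.42, 0.08, 0.64 and 0.65 (littermates -0.09 to 0.04) and Mis18a at 0.86, 0.02, 0.39 and 0.46 (littermates -0.32 to 0.36). Thus in replicate 1 these genes exceeded their 2-copy partners by less than in the other 3 libraries, and the partners were themselves high there. In replicate 1 Cct8 and Mrpl39 still lay above the range of the littermates, whereas Atp5j and Mis18a lay inside it. Psmg1 (0.37, 0.08, 0.63 and 0.66) was likewise lowest in replicate 1, inside the range of the littermates. Pigp (0.58, 0.77, 0.64 and 1.07) and Ltn1 (0.49, 0.47, 0.79 and 1.07) lay above every littermate in all 4 libraries, by a wider margin in replicate 1 than Cct8 and Mrpl39. Donson (0.86, -0.56, 0.45 and 0.83) and Sod1 (0.60, -0.23, 0.48 and 0.61) were below theirs in replicate 1 and above in the other 3.

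The loci of Jam2, Igsf5 and Mrps6 were not set beside partners, since most of their fragments belonged to another gene. Over the other 17 genes with a list of partners, the median of this relative value was 0.49, 0.01, 0.65 and 0.66 in replicates 0 to 3. Relative to their partners, 5 of the 17 lay above every littermate in all 4 libraries, and 15 did without replicate 1, against 9 and 12 on their own values. The 5 were Cct8, Mrpl39, Pigp, Ltn1 and Cxadr. In replicate 1 the own value of Cxadr (11298) was below every littermate (11801 to 14351). Its relative value there was 0.13, with its partners at -0.33. Cldn5 and Esam are in both that partner list and the endothelial markers, and their part was not tested. In replicate 1 alone, 5 were above, 6 below and 6 within the range of the littermates. Replicate 1 was also the library with the lowest hippocampal and highest erythroid sums of this model, and its muscle markers summed to 453, against 20.8 to 53.6 in the littermates. Its summed progenitor markers were the highest of the 8 libraries (23056, littermates 14857 to 18354). Markers of pericytes and meninges (3072, littermates 749 to 1446), epidermis (344, littermates 114 to 162) and choroid plexus (2553, littermates 137 to 1763) were also above the littermates in replicate 1, and those of endothelium were below (1392, littermates 2180.0 to 2317). Neuron, microglia and striatum markers lay within the range of the littermates. Replicate 3 shared part of this, with hippocampal (3965) and endothelial (1139) sums below the littermates. Its erythroid (22567), muscle (92.6) and epidermis (170) sums were above them. Its progenitor (14602) and microglia (476) sums were below the littermates, and its other sums lay within their range. The part of these markers in the values of replicates 1 and 3 was not tested.

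**Figure D4:**
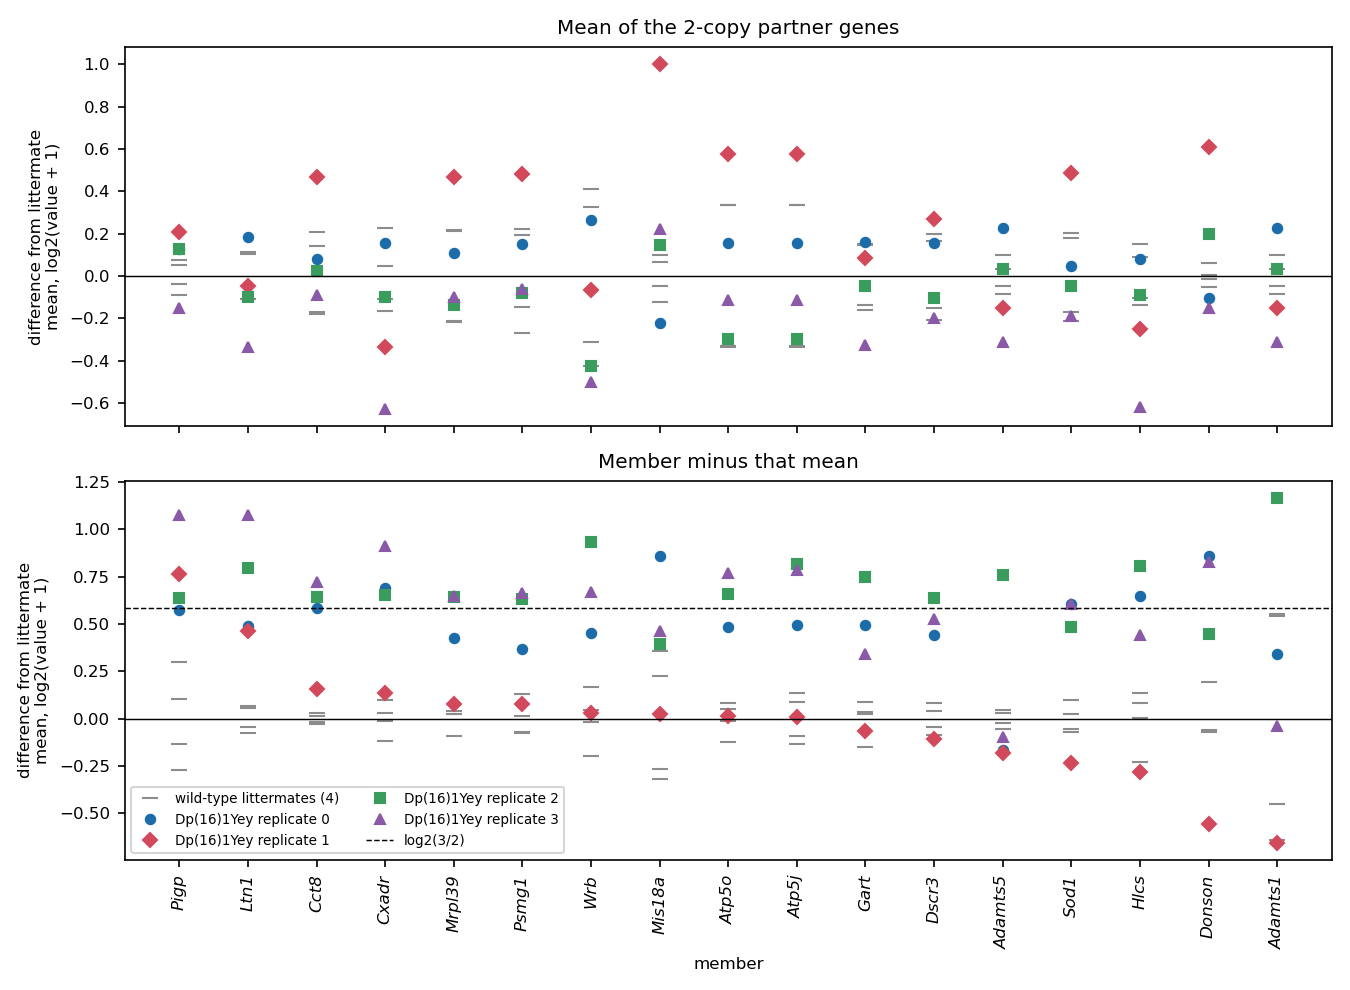
Upper panel, mean difference from the littermates of the 2-copy partner genes of 17 genes of the segment, and lower panel, the gene minus that mean, both on log2(value + 1), with littermates in grey and Dp(16)1Yey libraries in colour. In the lower panel replicate 1 (red) runs from 0.767 at Pigp to -0.65 at Adamts1, while replicate 2 stays between 0.393 and 1.17.

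In 189N3, where these genes are in 2 copies each, the same loci gave a comparison without the extra dosage. Of the 39, 19 were higher (background 43.8% of 35899 loci) and 20 lower (background 56.2%), and the median difference on the log2 scale was -0.01 (all loci -0.04). None of the 39 had an adjusted or an unadjusted p under 0.05 in limma (background at an unadjusted p 0.825% higher and 1.05% lower), and edgeR and DESeq2 on the recovered fragments also gave 0 of the 39 at an unadjusted p under 0.05. Over all loci limma called 0 (672 at an unadjusted p under 0.05), edgeR 0 and DESeq2 15. In 3 loci every 189N3 library was above every littermate (background 1.99%), namely Tmem50b, Urb1 and Dopey2, which also had the smallest p-values, and in 0 loci below (background 2.99%). Tmem50b stood at 748, 743 and 1079 against 621, 738 and 617, Urb1 at 382, 407 and 386 against 319, 330.3 and 282, and Dopey2 at 702, 662 and 909 against 578, 591 and 524. Their log2 fold changes were 0.36, 0.34 and 0.41, with an exact permutation p of 0.10 each, the smallest that 3 against 3 samples allow. Cct8 stood at 7746, 6646 and 11115 in 189N3 against 7678, 8581 and 9297, Ttc3 at 44684, 47923 and 66377 against 48756, 53243 and 53284, and Pigp at 656, 473 and 885 against 621, 721 and 882. In these 3 genes the groups overlapped, and the log2 fold changes were -0.03, 0.01 and -0.17. The erythroid markers summed to 13935 to 22232 in 189N3 and to 33976 to 54439.5 in its littermates, and their part in these values was not tested.

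**Figure D5:**
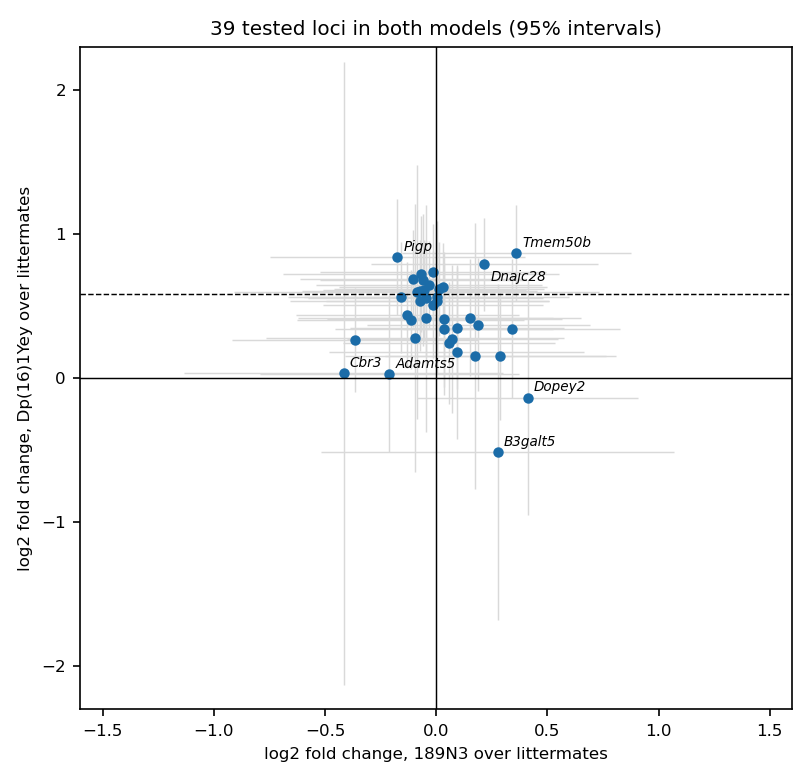
Log2 fold change of the 39 tested loci in 189N3 (horizontal) and in Dp(16)1Yey (vertical), each against its own littermates, with 95% intervals as grey lines and a dashed line at log2(3/2). The points lie above 0 on the vertical axis in 37 loci and on both sides of 0 on the horizontal axis (19 above and 20 below).

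The difference between the genotype effects of the 2 models was tested directly in 1 fit of all 14 libraries. The median difference over the 39 loci was 0.52, higher in Dp(16)1Yey (all loci 0.08). An unadjusted p under 0.05 was reached by 16 loci, all with the larger effect in Dp(16)1Yey (background 1.53% of 36045 loci), and by 17 without Dp(16)1Yey replicate 1 (background 1.14%). None of the 39 passed the adjusted threshold with or without that library (background without it 0.00278%), and over all loci limma, edgeR and DESeq2 each called 0 (957, 915 and 892 at an unadjusted p under 0.05). The smallest unadjusted p was that of N6amt1 (0.00324, difference 0.80), followed by Pigp (0.00569, 1.02) and Cryzl1 (0.00703, 0.75). Tmem50b, highest in Dp(16)1Yey, had a difference of 0.51 with an unadjusted p of 0.0576. The number of loci depended on single libraries, from 8 without 189N3 replicate 1 (background 5.45% in either direction) or 189N3 littermate replicate 2 (1.33%) to 20 without 189N3 replicate 2 (2.49%), and was 10 with the Dp(16)1Yey littermate pairs averaged (1.17%).

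The 2 wild-type groups were not at the same level for these genes. In 11 of the 39 loci every wild-type littermate of 189N3 was above every littermate of Dp(16)1Yey (28.2%, background 10.4%), and in 6 below (15.4%, background 14.9%). Cct8 stood at 7678, 8581 and 9297 in the wild-type littermates of 189N3, between the littermates of Dp(16)1Yey and Dp(16)1Yey itself. Ltn1 stood there at 2515, 2656 and 2538 and Ttc3 at 48756, 53243 and 53284. Both models were therefore read only against their own littermates.

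At the level of isoforms, whose values are the authors' estimated shares of the same fragments, 143 isoforms of these loci were tested in Dp(16)1Yey. Of these, 119 were higher (background 53.5% of 60652 isoforms) and 24 lower (background 46.5%). The higher ones included 35 at an unadjusted p under 0.05 (background 1.71%), and 3 were lower at that level (background 1.77%), 2 of Prdm15 and 1 of Hlcs. The dominant isoform of Tmem50b held 97.8% of its fragments and had a log2 fold change of 0.91 (SE 0.15). That of Cryzl1 held 95.9% (0.73, SE 0.14) and that of Ltn1 86.8% (0.61, SE 0.12). In these genes the estimates thus gave most of the locus value to 1 transcript.

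Levels between genes were compared only per kb of exon (all exons of the gene in GENCODE vM21), in the wild-type littermates of Dp(16)1Yey. Ttc3 (2431 normalised fragments per kb), Cct8 (1979), Atp5o (1791) and Cxadr (1759) were the highest of the loci that hold a single gene, followed by Wrb (474), Sod1 (457) and Atp5j (328). At the low end were Eva1c (4.61), Sh3bgr (4.87), Cbr3 (9.77), B3galt5 (12.6), Ripk4 (13.0) and Adamts5 (15.9). Cbr3, B3galt5 and Eva1c were also among the 5 tested loci with the widest intervals in Dp(16)1Yey, beside Chodl and Adamts1.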

How the data were processed

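RNA-seq libraries of 14 embryonic hippocampus samples, labelled as poly(A) RNA although the study's methods name a stranded total RNA kit, were mapped by the authors to mm10 with TopHat and Bowtie and assembled with Cufflinks; versions are not given in the sources used here. The deposited values are a signal, fragments per assembled locus or isoform divided by 1 size factor per library. Low values were whole multiples of 1 fragment (worth 0.816 to 1.21) within 0.05 fragment, so fragments were also recovered and tested with edgeR 4.0.16 and DESeq2 1.42.0; the tables give 20809135 to 29098454 fragments per library.

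Loci were named through the deposited transcript map, where class codes gave an identical or shared-junction transcript and isoform sums matched the locus in 14 columns; 8747 loci were placed by their neighbours. Values were analysed as log2(value + 1) with limma 3.58.1 (R 4.3.3) with a mean trend, at a minimum mean of 10, within each model and, for the difference between models, over all 14 libraries, with Benjamini-Hochberg adjustment over all loci and a threshold of 0.05. Fold changes on this scale understate those of low genes. Single loci were also compared by two-sided exact permutation tests (SciPy 1.17.1). On simulated data with independent libraries and a fixed dispersion of 0.03, 200 loci of higher mean were changed by 2-fold. Limma recovered 95.5% of them in the Dp(16)1Yey design (35807 loci) and 83% in the 189N3 design (36676 loci). The simulation held no littermate pairs and no shifts shared between loci. It does not give the power for a smaller change such as log2(3/2).

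Values in every library are given for the 10 tested loci with the smallest p and the 4 with the lowest fold change in Dp(16)1Yey, the 3 with the smallest p in 189N3, and Ttc3, Dscr3 and Sod1; those of other loci were chosen after their values were seen. The genes, partner lists and marker lists were chosen with earlier results of these data known. Alternatives were other pseudocounts, filters, scalings, count tests, a replicate block and leaving out each library. The floor of 3 fragments for a value of 0 covers counting error only.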

Additional observations from a re-analysis of the deposited data

Results flagged for a closer look

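In 78 groups of 4 libraries (39 loci in Dp(16)1Yey and in its littermates), 3 had 1 library far from the others on log2(value + 1), by a gap to the nearest library whose share of the group's range passed Dixon's 95% critical value. Chance alone gives about 1 in 20. N6amt1 in Dp(16)1Yey replicate 2 was the highest, at 371 normalised fragments, with a gap of 0.897 of the range. The Igsf5 locus, mostly Pcp4 fragments, was also highest in Dp(16)1Yey replicate 2, at 1184, with a gap of 0.843. Donson was lowest in Dp(16)1Yey replicate 1, at 330.3, with a gap of 0.840, where the helicase genes of the replication fork were higher than in the littermates by 0.61 on the log2 scale. The part of the markers that differed in replicate 1 was not tested.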

How the results depend on the processing

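Without Dp(16)1Yey replicate 1, the loci of the 45 genes with every Dp(16)1Yey library above every littermate went from 16 to 27, and those above their partner genes from 5 to 15 (6 with the 3 loci of mostly another gene's fragments); these alternatives were chosen after seeing the data. Leaving out each library in turn gave 17 to 29 loci with an unadjusted p under 0.05 in Dp(16)1Yey (2.0% to 12.7% of all loci), a median log2 fold change of 0.37 to 0.55 and 0 to 3 loci of the whole table past the adjusted threshold; DESeq2 called 8. In 189N3, leaving out 1 library gave 0 to 28 loci of the whole table (28 without littermate replicate 1, 2 without littermate replicate 0), 0 or 1 of the 39 at an unadjusted p under 0.05 (1, lower, without 189N3 replicate 2) and a median of -0.12 to 0.08, while median-ratio size factors called 2 and DESeq2 15. For the difference between the models, 0 or 1 locus was called (1 without Dp(16)1Yey replicate 1), and the 16 loci with an unadjusted p under 0.05 became 9 with median-ratio size factors, 7 with DESeq2, 10 with littermates averaged in pairs and 8 to 20 without 1 library (8 without 189N3 replicate 1 or 189N3 littermate replicate 2, 10 without 189N3 replicate 0 or Dp(16)1Yey littermate replicate 1). The cause of these changes was not tested.

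Of 17 named loci in Dp(16)1Yey, 4 changed sign under 11 of 355 alternatives. B3galt5 was 0.095 without Dp(16)1Yey replicate 1 (leaving out 1 library, -0.86 to 0.09) and Dopey2 0.29 (-0.42 to 0.29), or 0.022 as a log2 ratio of group means. Adamts5 was -0.0017 with median-ratio size factors and -0.22 to 0.18 without 1 library. Cbr3 was -0.73 with a pseudocount of 0.1 and -0.68 to 1.28 without 1 library. Tmem50b and Dnajc28 passed the adjusted threshold with DESeq2.

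With the replicate number as a block, 16 of the 39 loci in Dp(16)1Yey (2.40% of all loci) and 10 for the difference between the models (1.42% of all loci) had an unadjusted p under 0.05, and 72 loci of the whole table but none of the 39 were called in 189N3. The numbers did not pair the samples. The correlation of same-numbered deviations ranged from -0.58 to -0.03 in Dp(16)1Yey and from -0.50 to -0.02 in 189N3, and no sample correlated best with its own number. Depth limits Cbr3, where a count of 0 in replicate 1 allows up to 3 fragments.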
